A study of Mus musculus with 6 samples.

Results

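The 35 genes described here are interferon-stimulated genes, which cells switch on when an interferon binds its receptor. They were chosen by name: a gene was taken when its name in the scanner files equalled one of the 35 names on a fixed list, and the brightest of its probes stood for it. All 35 had a probe among the 36870 gene names on the array. Of these 35 genes, 33 were bright enough to be tested, out of 20475 genes tested in all.

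RNA from mouse lung tumors was measured on Agilent 2-colour arrays, which hold short DNA probes and read one sample in the Cy5 dye and another in the Cy3 dye. There were 3 samples labelled tamoxifen and 3 labelled corn oil, called tamoxifen and oil samples below. Every mouse of both groups had the genotype Ror1f/f; CAG-CreER; SPC-hEGFRdel746-750 on the C57BL/6J strain. That is, both groups carried a floxed Ror1 gene, a Cre recombinase that tamoxifen activates, and a mutant human EGFR transgene. The CAG promoter is active in most cell types, so Cre is not limited to tumor cells, and the SPC promoter drives the transgene in alveolar epithelium. Dosing began at week 16 and lasted 4 weeks, and the tumors were taken at 20 weeks of age. The comparison asks what changed in these tumors when mice meant to lose Ror1, a Wnt5a receptor, were set against mice of the same genotype meant to keep it. No group here received tamoxifen without the floxed gene, so an effect of tamoxifen or of Cre cannot be told apart from one of Ror1. Whether the numbered samples came from separate animals is not given in the labels, so p-values measure only the spread between these samples, which may be technical.

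A tamoxifen and an oil sample that bear the same number were hybridised together, once in each dye orientation, which gave 6 arrays in 3 couples on 1 slide. Between 51.8% and 58.8% of probes per array and channel were well above background. Markers of alveolar type 2 cells, the epithelium from which such tumors arise, were well above background in all 6 readings of each group. The Ror1 probe read 9.35, 9.30 and 9.17 on the log2 intensity scale in tamoxifen samples 1, 2 and 3, against 8.76, 8.86 and 8.99 in oil samples 1, 2 and 3. It was therefore brighter in the samples labelled tamoxifen in every couple, by 0.40 ± 0.21 on the log2 scale (SD over 3 couples), without passing the test (limma, adjusted p = 0.688). The labels do not say which part of the gene is floxed, so the probe does not check them. The samples of couple 1 also differed in genes of the sex chromosomes: Eif2s3y, a Y-linked gene, read 9.73, 6.20 and 10.70 in tamoxifen samples 1, 2 and 3, against 6.01, 6.06 and 10.07 in oil samples 1, 2 and 3. Couple 1 thus set a sample with this Y-linked signal against one without it, and the members' median and counts of signs are given below without couple 1 as well.

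Interferons are secreted proteins that warn cells of viruses and of misplaced nucleic acid. Type I interferons act through a receptor whose kinases activate transcription factors, among them Stat2, which with Irf9 binds a DNA element called ISRE in the promoters of target genes. Interferon gamma acts at an element called GAS and induces an overlapping set of genes. In lung tumors these genes are expressed by tumor cells and by immune and stromal cells alike. In bulk tumor RNA, fewer cells of a type and less RNA per cell cannot be told apart.

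The promoters are shown because they hold the letters that the Stat and Irf proteins are known to bind. They are RefSeq sequences on build GRCm38.p6, which held a promoter for 26 of the 35 genes. The window ran from 250 bases before to 50 bases after the transcript start. The searched ISRE letters were GAAA, any 2 bases and GAAA again, or, on the other strand, TTTC, any 2 bases and TTTC; matches may overlap. They stood in 12 of the 26 genes (46.2%), against 1079 of all 27025 genes in the table (3.99%). The GAS letters, TTCNNNGAA, read the same on both strands and stood in 6 of the 26 genes (23.1%), against 9.55% of all genes in the table. A match is a description of letters and not evidence of a bound site. Each sequence below is written 5′ to 3′ on the strand of its gene, with the ISRE letters in capitals; these are the 6 genes holding the letters whose ratios had the smallest p-values.
Ifit1, 250 bases before the start, chr19:34640639-34640888 (+): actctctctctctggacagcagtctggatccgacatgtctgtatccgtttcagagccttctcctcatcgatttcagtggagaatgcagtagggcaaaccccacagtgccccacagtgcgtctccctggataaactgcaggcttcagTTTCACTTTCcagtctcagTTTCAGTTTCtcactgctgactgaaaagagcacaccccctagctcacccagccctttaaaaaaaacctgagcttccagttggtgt
Ifit3, chr19:34583363-34583426 (+): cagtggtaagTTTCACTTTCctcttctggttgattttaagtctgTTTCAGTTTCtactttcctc
Gbp3, chr3:142559989-142560024 (+): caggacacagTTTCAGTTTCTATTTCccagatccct
Rsad2, chr12:26456553-26456582 (-): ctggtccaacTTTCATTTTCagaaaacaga
Stat2, chr10:128270266-128270295 (+): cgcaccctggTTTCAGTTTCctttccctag
Ifih1, chr2:62646206-62646233 (-): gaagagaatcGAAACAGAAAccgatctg

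Ifit1 and Ifit3 each held 2 separate matches, and in Gbp3 a pair of matches overlapped. In Isg15, 3 matches overlapped in a row, the first of them at position -78 from the start. Oas1a and Bst2 each held an overlapping pair and also the GAS letters. The other genes with ISRE letters were Gbp2, Oas3 and Ddx58. GAS letters without ISRE letters stood in Samhd1, Irf1, Ifi35 and Ifit2. Usp18, Mx1, Mx2, Oas2, Dhx58, Zbp1, Parp9, Parp14 and Rtp4 are named only.

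**Figure D1:**
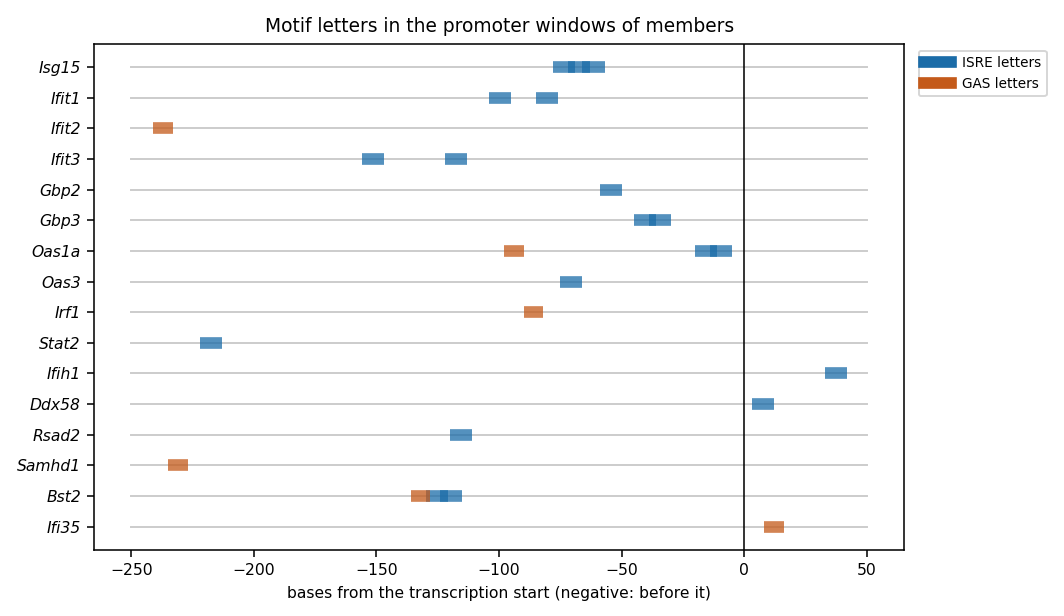
Positions of the ISRE and GAS letters, in bases from the transcript start on the x axis, in the promoter windows of the interferon-stimulated genes with a match. Each row is a gene and each mark a match; most ISRE marks lie before the start, and those of Ifih1 and Ddx58 lie after it.

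The probes that measured the genes with the smallest p-values and those with the widest spread are identified by the first 30 of their 60 bases, which are printed as the array design gives them, with the position of the whole probe on build mm9 and its strand.
Cmpk2, chr12:27164134-27164193 (+): aacatggtattgaatattctatccttgggt
Ifit1, chr19:34723827-34723886 (+): gaagacttttggcttactagagaattaaaa
Irf1, chr11:53590746-53590805 (+): ctgctaaatggtgtttggtcatgtggtgga
Ifit2, chr19:34650244-34650303 (+): tcatataaacatttatttcaagagtatgga
Oas1a, chr5:121346735-121346794 (-): tgtccacctgttggaaggttctgtctgaca
Oas2, chr5:121180343-121180402 (-): ctggggactctgcagttggctgttcattta

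For no interferon-stimulated gene did the difference between tamoxifen and oil samples pass the test over all genes. None of the 33 tested members passed an adjusted p of 0.05 in limma (0 of 33, against 0% of all genes tested), and their adjusted p ranged between 0.688 and 0.998. At an unadjusted p of 0.05, 1 of 33 members lay past the threshold (3.03%), against 7.01% of all genes tested, or 1436 of 20475. That member was Cmpk2, which was higher in tamoxifen samples, where 3% of all genes were higher at that threshold and 4.01% were lower. Taking the couple as a random block over the 6 arrays, 56 genes of the whole array passed the adjusted threshold and 0 of the members did. The lowest adjusted p of any gene in the couple fit was 0.409.

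The sign of the members was less even than that of all genes in the means, and differed between couples. The mean log2 ratio of tamoxifen over oil was above 0 for 26 of 33 members (78.8%), against 48.8% of all genes. Without couple 1 it was above 0 for 27 of 33 (81.8%), against 48.9% of all genes. The members' median was 0.09, against -0.00 over all genes tested. By couple, the members' medians were 0.08, -0.07 and 0.30 in couples 1, 2 and 3, against all-gene medians of -0.01, -0.00 and -0.00. Ratios above 0 were counted in 23 members in couple 1 (69.7%, against 48.5% of all genes), in 13 in couple 2 (39.4%, against 49.8%, with 20 below 0 against 50.2% of all genes) and in 29 in couple 3 (87.9%, against 48.9%). The shift of the list was thus upward mainly in couple 3, and slightly downward in couple 2. Without couple 1 the median was 0.09, without couple 2 it was 0.16, and without couple 3 it was -0.00.

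In all 3 couples, 8 members were higher in tamoxifen samples (24.2%, against 13.8% of all genes) and 0 were lower (against 16.4%), while 30.2% of all genes had 1 sign in all couples. The 8 were Cmpk2, Herc6, Ifi35, Ifi44, Ifit1, Ifit2, Irf1 and Trim25. Another probe of Ifi35 was below 0 in couple 3, and another probe of Trim25 was below 0 in every couple. Of the members outside these 8, 11 were higher in couples 1 and 3 and lower in couple 2, against 11.2% of all genes with that pattern. Another 9 were lower in couples 1 and 2 and higher in couple 3, against 12.8% of all genes. A further 4, namely Dhx58, Gbp2, Gbp3 and Mx1, were higher in couples 1 and 2 and lower in couple 3 (13.7% of all genes), and Parp9 was lower in couple 1 and higher in the others (11% of all genes). No member was higher in couple 1 alone or in couple 2 alone, against 9.81% and 11.3% of all genes. Without couple 1, 9 members had 1 sign in the couples left, and without couple 2 there were 19. Without couple 3 there were 21, of which 12 were higher and 9 lower. Each pattern of signs over 3 couples held between 9.81% and 16.4% of all genes, so many genes share a sign in any 2 couples. That share over all genes was not counted, so no excess or lack is read from these counts.

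The errors bound what the arrays could have missed, but only on the scale of this fit, whose processing pulled ratios of dim probes toward 0. The SD of a member over couples lay between 0.037 and 0.87, with a median of 0.233, against a median of 0.167 over all genes. In this fit no member's mean differed by 1.5-fold or more in either direction. The 95% interval of limma covered 0 for 32 of 33 members, and for 31 of 33 it lay inside a 2-fold change either way. For the remaining pair, Oas1a and Oas2, it reached below a 2-fold decrease. With the scanner software's ratios some means were larger: 0.55 for Cmpk2 (0.38 in this fit), 0.44 for Ifit2 (0.23), 0.40 for Mx2 (0.19) and 0.38 for Ifit1 (0.23). Those of the brighter Oas1a (-0.12) and Irf7 (-0.07) were unchanged at 2 decimals.

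**Figure D2:**
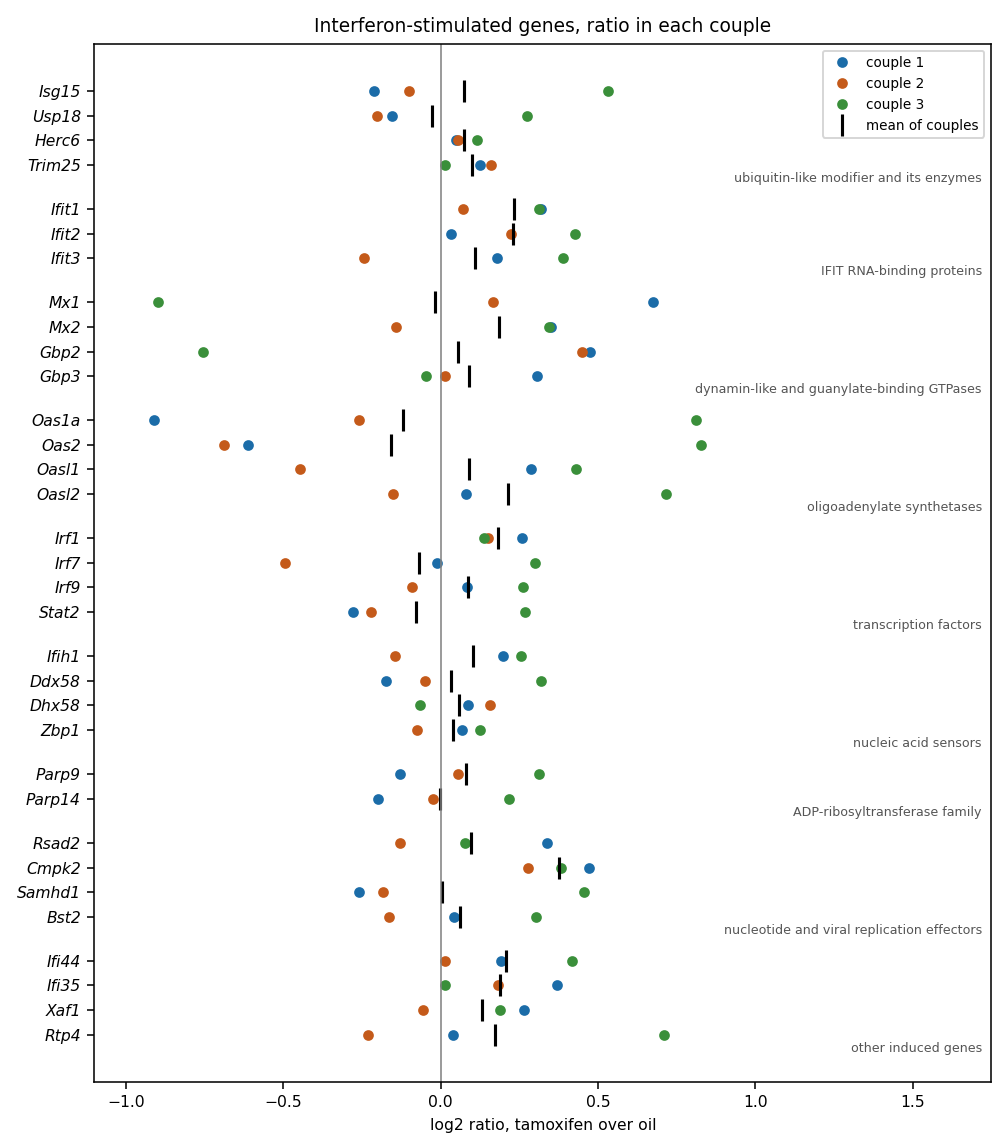
Log2 ratio of tamoxifen over oil (x axis) in couples 1, 2 and 3 for each of the 33 tested interferon-stimulated genes, which run down the page by role, with a short upright line for the mean of the 3 couples. Cmpk2 lies above 0 in every couple, while Oas1a, Oas2, Mx1 and Gbp2 span 0 by more than 1 log2 unit between couples.

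Isg15 encodes a ubiquitin-like protein that is attached to other proteins during the interferon response. It read 10.16, 10.36 and 10.73 on the log2 scale in tamoxifen samples 1, 2 and 3, against 10.37, 10.46 and 10.20 in oil samples 1, 2 and 3. The groups overlapped, with tamoxifen sample 3 the highest. The log2 ratio was -0.21, -0.10 and 0.53 in couples 1, 2 and 3, or 0.07 ± 0.40 (SD, n = 3 couples; limma, adjusted p = 0.931), and without couple 3 the mean was -0.16. Usp18 removes Isg15 from proteins and damps signalling at the type I receptor. Its level was 7.82, 8.08 and 8.24 in tamoxifen samples, against 7.97, 8.29 and 7.97 in oil samples, so the groups overlapped here too. Its ratios of -0.16, -0.20 and 0.27 averaged -0.03 ± 0.26 (SD; limma, adjusted p = 0.968), with the same sign as Isg15 in each couple. Herc6, the main ligase for Isg15 in mice, was higher on all 6 arrays but by only 0.07 ± 0.04 on the log2 scale (SD). Trim25, a ubiquitin ligase that acts on the RNA sensor Ddx58, read 13.10, 13.18 and 13.10 in tamoxifen samples and 12.98, 13.02 and 13.08 in oil samples. These groups did not overlap, but a second Trim25 probe of nearly the same brightness gave -0.35, -0.10 and -0.01 in couples 1, 2 and 3, so the probes disagreed on the sign.

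The IFIT proteins bind viral RNA and block its translation, and all 3 had means above 0. Ifit1 read 7.63, 7.72 and 7.74 in tamoxifen samples 1, 2 and 3, against 7.31, 7.65 and 7.43 in oil samples 1, 2 and 3. Oil sample 2 lay above tamoxifen sample 1, so the groups overlapped. Its log2 ratio was 0.32, 0.07 and 0.31 in couples 1, 2 and 3, or 0.23 ± 0.14 (SD; limma, adjusted p = 0.688; 95% interval -0.01 to 0.48). Ifit2 read 7.14, 7.22 and 7.42 in tamoxifen samples, against 7.10 in oil sample 1 and values rounding to 7.0 in oil samples 2 and 3. All tamoxifen samples lay above all oil samples, though tamoxifen sample 1 and oil sample 1 differed by only 0.03. The ratio of Ifit2 averaged 0.23 ± 0.20 (SD; limma, adjusted p = 0.691), and it was above 0 on all 6 arrays. Ifit3 had ratios of 0.18, -0.24 and 0.39, and its near-identical copy Ifit3b had 0.33, -0.28 and 0.41; how far the probes tell these copies apart was not tested.

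Groups that did not overlap, with tamoxifen higher, were counted for 3 members (9.09%, against 5.2% of all genes): Cmpk2, Ifit2 and Trim25. Trim25 is counted here by its brightest probe, and its second probe had the opposite sign. With tamoxifen lower the count was 0, against 7.14% of all genes. On all 6 arrays, 3 members were higher (Cmpk2, Herc6 and Ifit2), against 6.04% of all genes, and 0 were lower, against 7.21%.

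**Figure D3:**
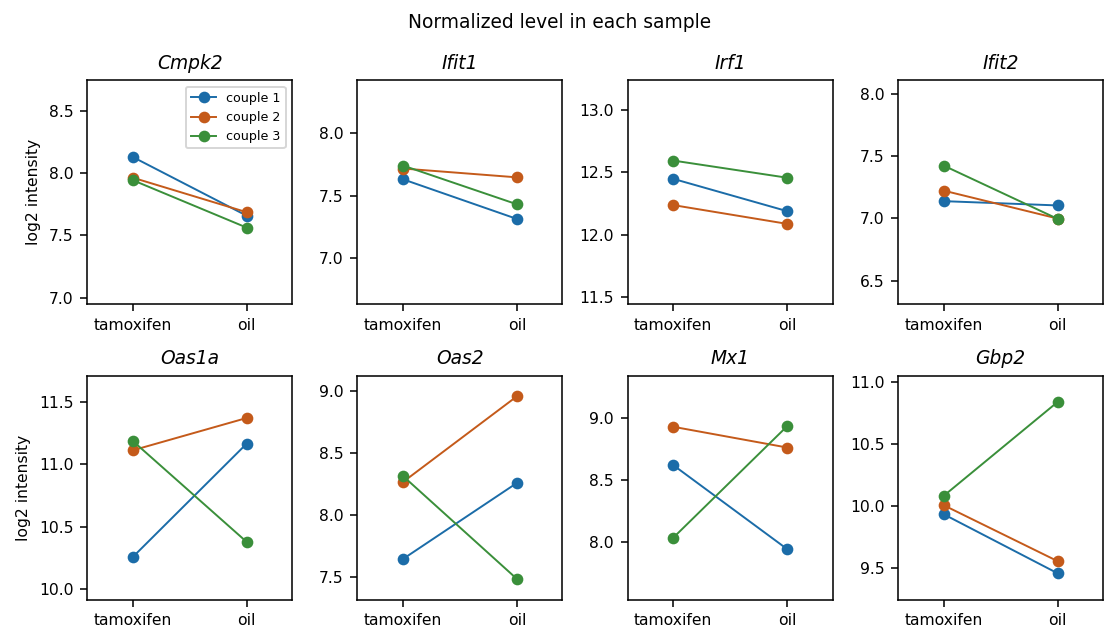
Log2 intensity (y axis) of the 4 interferon-stimulated genes with the smallest p-values and the 4 with the widest spread, one to a panel, in the 3 tamoxifen samples and, to their right, the 3 oil samples, with lines joining the samples of a couple. The groups stand apart for Cmpk2 and Ifit2 and overlap for Ifit1, Irf1, Oas1a, Oas2, Mx1 and Gbp2.

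Mx1 and Mx2 are dynamin-like GTPases that trap viral particles, and many laboratory mouse strains carry a defective Mx1 gene. Mx1 read 8.62, 8.93 and 8.04 in tamoxifen samples 1, 2 and 3, against 7.94, 8.76 and 8.93 in oil samples 1, 2 and 3. Tamoxifen sample 3 and oil sample 1 were both low and lay in different couples, so the groups overlapped fully. The log2 ratios of 0.68, 0.17 and -0.90 averaged -0.02 ± 0.80 (SD; limma, adjusted p = 0.994). Without couple 3 the mean was 0.42, and a dimmer Mx1 probe gave 0.34, 0.08 and -0.44, in the same order. Mx2 read 7.06, 7.04 and 7.18 in tamoxifen samples, against 6.71, 7.18 and 6.84 in oil samples. Its ratios of 0.35, -0.14 and 0.34 averaged 0.19 ± 0.28 (SD; limma, adjusted p = 0.769), so the Mx genes differed in sign in couples 2 and 3.

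Gbp2 and Gbp3 are guanylate-binding proteins that coat the vacuoles of intracellular microbes and are strongly induced by interferon gamma. Gbp2 read 9.94, 10.01 and 10.08 in tamoxifen samples 1, 2 and 3, against 9.46, 9.56 and 10.84 in oil samples 1, 2 and 3. The tamoxifen samples lay close together, and oil sample 3 stood above all the others. The log2 ratios of 0.47, 0.45 and -0.76 averaged 0.06 ± 0.70 (SD; limma, adjusted p = 0.972), and without couple 3 the mean was 0.46. Gbp3 moved less, by 0.31, 0.01 and -0.05 in couples 1, 2 and 3, which is 0.09 ± 0.19 (SD).

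Oligoadenylate synthetases bind double-stranded RNA and make the messenger that activates RNase L, and they had the widest spread of the list. Oas1a read 10.25, 11.11 and 11.19 in tamoxifen samples 1, 2 and 3, against 11.17, 11.37 and 10.38 in oil samples 1, 2 and 3. Tamoxifen sample 1 and oil sample 3 were the low ones. The log2 ratios were -0.91, -0.26 and 0.81 in couples 1, 2 and 3. Both dye orientations gave the same sign within every couple (-0.83 and -0.99 in couple 1, -0.22 and -0.30 in couple 2, 0.88 and 0.74 in couple 3). The mean was -0.12 ± 0.87 (SD; limma, adjusted p = 0.945), and without couple 1 it was 0.28. Oas2 read 7.65, 8.27 and 8.31 in tamoxifen samples, against 8.26, 8.95 and 7.49 in oil samples. Its ratios of -0.61, -0.69 and 0.83 averaged -0.16 ± 0.85 (SD; limma, adjusted p = 0.923), and leaving out couple 1, 2 or 3 gave means of 0.07, 0.11 and -0.65. Oasl1, which in mice restrains the translation of Irf7, and Oasl2 were lower in couple 2 and higher in couples 1 and 3, with means of 0.09 ± 0.47 and 0.22 ± 0.45 (SD). In couple 3 all 4 tested members of this family were higher in the tamoxifen sample, with a family median of 0.76, and in couple 2 all 4 were lower, with a median of -0.35. Oas3 was too dim to be tested: 0 of 6 tamoxifen readings and 2 of 6 oil readings rose well above background.

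The transcription factors of the response had small and mixed ratios. Irf1, an early factor induced by interferon gamma, read 12.45, 12.24 and 12.60 in tamoxifen samples 1, 2 and 3, against 12.19, 12.09 and 12.46 in oil samples 1, 2 and 3. Each couple favoured tamoxifen, but the groups overlapped. The ratio averaged 0.18 ± 0.07 (SD; limma, adjusted p = 0.688), and it depended on the dye: arrays with tamoxifen in Cy5 gave 0.45, 0.29 and 0.31, while those with the dyes exchanged gave 0.07, 0.01 and -0.03. Irf7, the factor that amplifies type I interferon production, read 10.35, 10.62 and 10.73 in tamoxifen samples, against 10.36, 11.12 and 10.43 in oil samples. Oil sample 2 was the highest of the 6. The ratios of Irf7 were -0.01, -0.49 and 0.30, or -0.07 ± 0.40 (SD; limma, adjusted p = 0.937), and without couple 2 the mean was 0.14. Stat2, which acts at ISRE elements, read 9.50, 9.67 and 10.01 in tamoxifen samples, against 9.78, 9.89 and 9.74 in oil samples. Its ratios of -0.28, -0.22 and 0.27 averaged -0.08 ± 0.30 (SD; limma, adjusted p = 0.906), and 0.02 without couple 1. Irf9, the DNA-binding partner of Stat2, averaged 0.09 ± 0.18 (SD).

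Cytosolic nucleic acid sensors start interferon production and are themselves induced. Ifih1 and Ddx58, which detect viral RNA, averaged 0.10 ± 0.22 and 0.03 ± 0.26 on the log2 ratio scale (SD, n = 3 couples). Dhx58, a relative that modulates both, averaged 0.06 ± 0.11, and Zbp1, a sensor of Z-form nucleic acid, 0.04 ± 0.10. All 4 means thus lay above 0 and inside 1 SD of it. Of the ADP-ribosyltransferase family, Parp9 averaged 0.08 ± 0.22 and Parp14 -0.00 ± 0.21 (SD).

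Cmpk2, a mitochondrial nucleotide kinase encoded next to Rsad2, had the smallest p-value of the members. It read 8.13, 7.96 and 7.94 in tamoxifen samples 1, 2 and 3, against 7.66, 7.69 and 7.56 in oil samples 1, 2 and 3. All tamoxifen samples lay above all oil samples. The log2 ratio was 0.47, 0.28 and 0.38 in couples 1, 2 and 3, a mean of 0.38 ± 0.10 (SD) or 1.30-fold, with a 95% interval of 0.16 to 0.60. It was above 0 on all 6 arrays, yet it did not pass the test over all genes (limma, adjusted p = 0.688; unadjusted p = 0.00739). Its neighbour Rsad2, which makes a chain-terminating nucleotide against viruses, averaged 0.10 ± 0.24 (SD). Samhd1, which degrades deoxynucleotides, had ratios of -0.26, -0.18 and 0.46 and averaged 0.01 ± 0.39, and Bst2, which tethers budding virions, averaged 0.06 ± 0.23 (SD).

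The remaining induced genes had means above 0. Ifi44 read 7.45, 7.45 and 7.39 in tamoxifen samples 1, 2 and 3, against 7.26, 7.43 and 6.98 in oil samples 1, 2 and 3. Oil sample 2 reached the level of the tamoxifen samples, and the ratio averaged 0.21 ± 0.20 (SD; limma, adjusted p = 0.71). Ifi35 read 12.26, 12.04 and 12.29 in tamoxifen samples, against 11.89, 11.86 and 12.28 in oil samples. Couple 3 showed almost no difference in Ifi35, and the mean was 0.19 ± 0.18 (SD; limma, adjusted p = 0.717). A dimmer Ifi35 probe gave 0.25, 0.13 and -0.07 in couples 1, 2 and 3, so the probes differed in sign in couple 3. Xaf1, which counters an inhibitor of apoptosis, read 8.73, 8.53 and 8.77 in tamoxifen samples, against 8.46, 8.59 and 8.58 in oil samples, and averaged 0.13 ± 0.17 (SD; limma, adjusted p = 0.779). Rtp4 averaged 0.17 ± 0.48 (SD), with 0.71 in couple 3. Epsti1 was too dim to be tested, with 3 of its 6 tamoxifen readings and 2 of its 6 oil readings well above background.

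The samples at the extremes of the members' levels lay in both groups. Tamoxifen sample 3 was the highest of the 6 samples for 16 of 33 members, against 13.4% of all genes, and oil sample 2 for 9, against 14.1%. The lowest sample was tamoxifen sample 1 for 8 of 33 members, which is near its share of 22.9% over all genes. It was tamoxifen sample 2 or 3 for 0, against 16.2% and 14.6% of all genes. It was oil sample 1 for 11 members, against 12.7% of all genes, and oil sample 3 for 11, against 18.2%. Across the 33 members the ratios correlated with r = 0.55 between couples 1 and 2, -0.64 between couples 1 and 3 and -0.63 between couples 2 and 3; over all genes these were 0.17, 0.12 and -0.02. The arrays of a couple with the dyes exchanged correlated with r of 0.79, 0.76 and 0.89 across the members in couples 1, 2 and 3, against 0.76, 0.77 and 0.79 over all genes. These correlations are across genes, which are not independent replicates, and the members share the samples and the array. Couple 3 had the highest ratio of the couples for 21 of 33 members, against 33.8% of all genes, and couple 2 the lowest for 17, against 30.2%.

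**Figure D4:**
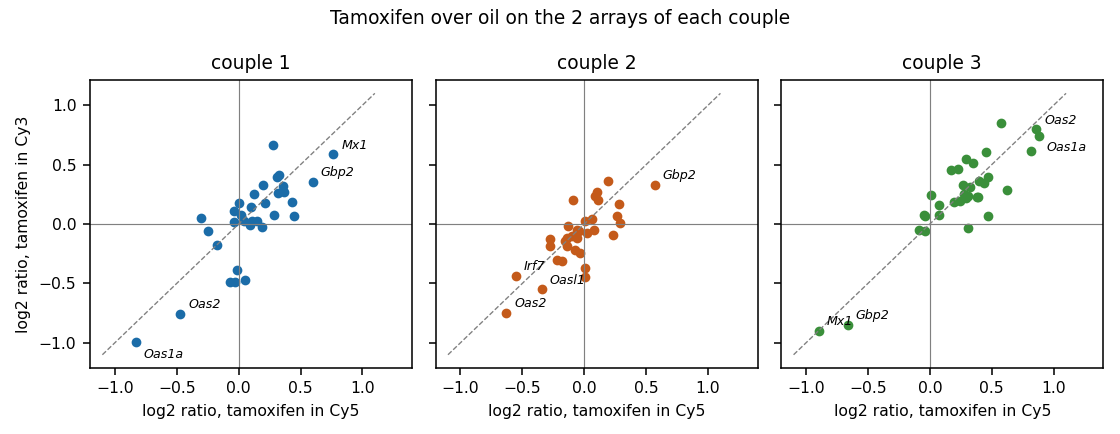
Log2 ratio of tamoxifen over oil with tamoxifen in Cy5 (x axis) against the ratio with tamoxifen in Cy3 (y axis), for the 33 tested interferon-stimulated genes in each couple. The points follow the diagonal, with r of 0.79, 0.76 and 0.89 in couples 1, 2 and 3.

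**Figure D5:**
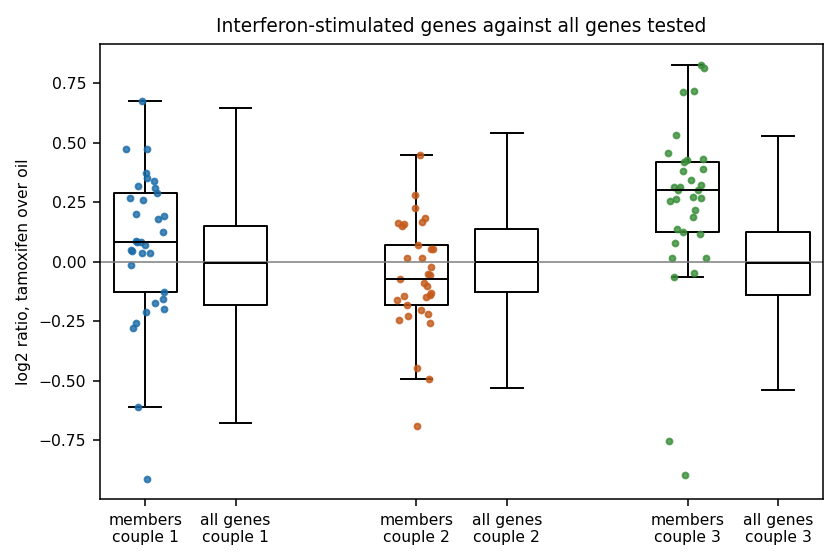
Distribution of log2 ratios of tamoxifen over oil for the 33 tested interferon-stimulated genes and, to their right, all 20475 tested genes, in each couple (y axis, log2 scale). Boxes give the quartiles and median, whiskers reach the last value within 1.5 box lengths, and points are members, whose medians are 0.08, -0.07 and 0.30 in couples 1, 2 and 3.

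Members with and without ISRE letters in the promoter window were set side by side. The 11 tested members with the letters had a median log2 ratio of 0.07, and 9 of them had a mean above 0. The 13 tested members whose window lacked them had a median of 0.13, and 12 of them had a mean above 0. In couple 1 the medians were 0.18 with the letters and 0.12 without, in couple 2 they were -0.13 with the letters and 0.01 without, and in couple 3 both were 0.30; the difference was not tested.

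Genes of the pathway around the list were read from the same fit, and 0 genes passed the adjusted threshold in any of the 4 pathway lists. Of 11 interferon genes, 4 were bright enough to be tested, with a median of -0.10 that moved to -0.28 with the scanner software's ratios and to -0.04 with no filter on dim probes: Ifnk, made by epithelium, at -0.18 ± 0.03, Ifna5 at -0.12, Ifna1 at -0.09 and Ifnl3 at 0.01. Ifnb1, the interferon beta gene, had 0 of 6 tamoxifen readings and 0 of 6 oil readings well above background. Ifng, the interferon gamma gene, had 1 of 6 in tamoxifen samples and 0 of 6 in oil samples. The ligand genes thus lay mostly near or below the background of the array, which limits what can be said of them.

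All 16 genes for receptors and signalling were tested, with a median log2 ratio of 0.01, 9 means above 0 and 7 below, and 0 at an unadjusted p of 0.05. The type I receptor chains Ifnar1 and Ifnar2 averaged -0.24 ± 0.32 and 0.14 ± 0.24, and Ifngr1 and Ifngr2, the chains for interferon gamma, -0.12 ± 0.30 and -0.22. Socs1 and Socs3, which inhibit the receptor kinases, averaged 0.29 ± 0.34 and 0.12. Single couples weighed on these means: leaving out 1 couple gave 0.13 to 0.47 for Socs1, 0.04 to 0.16 for Socs3, -0.37 to -0.06 for Ifnar1 and -0.39 to -0.03 for Ifngr2. No direction was shared by the receptor chains or by the inhibitors beyond their spread.

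Of 19 genes for sensing upstream of interferon, 18 were tested, with a median of 0.02, and 1 of them had an unadjusted p under 0.05 (5.56%, against 7.01% of all genes), which is near the share over all genes. That gene was Tmem173, the adaptor STING, which read 11.83, 11.91 and 11.68 in tamoxifen samples 1, 2 and 3, against 11.50, 11.45 and 11.54 in oil samples 1, 2 and 3. All tamoxifen samples lay above all oil samples, and the ratio was 0.31 ± 0.16 (SD; limma, adjusted p = 0.688). Irf3, the factor that STING activates, had a mean of -0.21 ± 0.08, Traf3, a signalling adaptor, 0.20 ± 0.13, and Adar, an RNA-editing enzyme, 0.16 ± 0.21 (SD). Neither Tmem173 nor Irf3, which moved in opposite directions, passed the test over all genes.

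Of 58 other interferon-induced genes, 51 were tested, with a median of 0.02, 29 means above 0 and 22 below. In all couples 5 of them were higher (9.80%, against 13.8% of all genes) and 9 lower (17.6%, against 16.4%). An unadjusted p under 0.05 was found for 1 of 51 (1.96%, against 7.01%), so the list held no excess of low p-values. That gene, Gbp4, a guanylate-binding protein, read 8.18, 8.29 and 8.39 in tamoxifen samples 1, 2 and 3, against 7.76, 8.09 and 8.17 in oil samples 1, 2 and 3, or 0.28 ± 0.12 (SD; limma, adjusted p = 0.688). The ratio of Gbp4 depended on the dye: arrays with tamoxifen in Cy5 gave 0.51, 0.48 and 0.50, and the dye-exchanged ones gave 0.32, -0.07 and -0.05. Cxcl10, a chemokine that draws T cells, read 8.53, 8.69 and 8.58 in tamoxifen samples, against 8.41, 9.05 and 8.46 in oil samples, and averaged -0.04 ± 0.28 (SD; limma, adjusted p = 0.962). Cxcl11, a related chemokine, averaged -0.27 ± 0.21, Oas1b -0.19 ± 0.05 and Ifitm1, a membrane protein that blocks viral entry, -0.32 ± 0.32 (SD). The Cxcl11 probe read 16.02, 16.28 and 16.33 in tamoxifen samples, against 16.52, 16.50 and 16.43 in oil samples. That is far brighter than Cxcl10, and whether the probe reports Cxcl11 RNA alone was not tested. The median of this wider list lay between -0.02 and 0.08 over the alternatives of the processing, a range that overlaps that of the 33 members (-0.00 to 0.16).

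Markers of the cells that express these genes were read from the same fit, and the median of the macrophage list changed sign between couples. All 9 tested of 10 alveolar macrophage markers had means below 0, with medians of -1.13, 0.71 and -0.36 in couples 1, 2 and 3. Their summed intensity ranged between 49901 and 218740 over the tamoxifen samples, against 83564 and 162870 over the oil samples. Most of that sum was 1 gene, Chil3, which the monocyte list also holds; without it the sum ranged between 16315 and 53343 over the tamoxifen samples, against 30048 and 41126 over the oil samples. The mean log2 ratio was -0.00 for Krt79 and -0.01 for Itgax. For plasmacytoid dendritic cells, the main producers of type I interferon, 5 of 7 markers were tested and all had means below 0; the summed intensity ranged between 42513 and 48697 in tamoxifen samples, against 56749 and 70439 in oil samples. Cox6a2 (-1.86) and Ly6d (-1.51) had the largest ratios of that list, while Tcf4 (-0.02) and Pacsin1 (-0.04) were near 0. Without Cox6a2 and Ly6d the sum ranged between 35913 and 43385 in tamoxifen samples, against 43169 and 47124 in oil samples, so the groups then overlapped. Most of that remaining sum was the probe of 1 gene, Siglech. On the log2 scale it read 14.734, 15.064 and 15.041 in tamoxifen samples, against 15.196, 15.205 and 15.087 in oil samples. All 7 tested of 10 T and NK cell markers had means above 0, with a summed intensity between 1896 and 2177 in tamoxifen samples, against 1738 and 2010 in oil samples. For alveolar type 2 cells 7 of 8 markers had means below 0, and the summed intensity lay between 586620 and 591500 in tamoxifen samples, against 704570 and 736510 in oil samples. The couple medians of the members, 0.08, -0.07 and 0.30, had the opposite sign to those of the macrophage markers in every couple. The same held against the monocyte (-0.14, 0.15 and -0.34) and neutrophil markers (-0.11, 0.52 and -0.02). Medians kept 1 sign over the couples for plasmacytoid dendritic cells (-0.46, -0.14 and -0.05) and T and NK cells (0.19, 0.10 and 0.06). They also did for alveolar type 2 cells (-0.21, -0.27 and -0.21) and B and plasma cells (0.16, 0.11 and 0.21). Conventional dendritic cells gave 0.02, 0.12 and 0.00024, so couple 3 showed almost no difference. Endothelial medians were -0.08, 0.08 and 0.25. The part of these cell types in the members' ratios was not tested.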

How the data were processed

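The members, the pathway and marker lists, the tests and the alternatives were chosen with earlier results of these data known. The deposited scanner files give spot intensity in each channel without normalization, and flags for spots well above background or outlying, per the file headers. Scanning used Agilent Feature Extraction 12.0.3.1, as the submitters' processing notes record. Per the file headers, the software's log10 ratios of Cy5 over Cy3, also deposited, follow subtraction of background, detrending across the array and a dye normalization that was linear and then lowess. The deposited series table gives Cy5 over Cy3 as log2 values: its slope on the log10 ratio was 3.32 on every array, and its column medians in couples 1, 2 and 3 were 0.14, -0.14 and -0.06 where Cy5 held tamoxifen and 0.13, -0.15 and -0.0054 where it held oil. Its scale, centring and direction are therefore known.

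In limma 3.58.1 under R 4.3.3, normexp (offset 50, all 62976 spots) and loess within each array were applied, with 3671 control spots at weight 0 and then removed. Outlier spots were left out, and 0 spots were saturated. The brightest of 56605 probes stood for each of 36870 gene names. Other probes are named for some members only, and not every disagreement is given. For example, a dimmer Irf7 probe gave 0.07 in couple 1, against -0.01. A dimmer Zbp1 probe gave 0.16 in couple 2, against -0.07. A gene was tested if, in 2 or more couples, the tamoxifen channel of both arrays, or the oil channel of both, was well above background, which left 20475 genes. The 2 arrays of a couple were averaged, and the 3 couple ratios were tested against 0, two-sided, by lmFit and eBayes with Benjamini-Hochberg adjustment at 0.05. Sample levels are log2 intensities after loess and Aquantile normalization, averaged over both dyes. The number of arrays limits the precision (median SE of a gene 0.0983), and the offset pulls ratios of dim probes toward 0. All samples were on 1 slide and in 1 scan, so no batch was tested.

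The numbers pair the samples because each couple shared its arrays; deviations of same-numbered samples from the group means correlated with r of 0.0951, 0.158 and 0.161 in couples 1, 2 and 3. Levels in every sample are given for the 8 members with the smallest p, the 4 with the largest SD and Isg15, Ifit1, Irf7, Stat2 and Usp18; other sample values were chosen after their values were seen. Of the pathway, genes fixed by name and the 4 with the smallest p per list are given, except for a result that is not reported here. The marker genes left out of a sum were chosen after their values were seen. The analysis was tested on simulated data whose changes were larger than the mean of any member, so that test does not cover changes of the members' size. Accessions of 33 of 35 members matched RefSeq; a genome of build mm9 was not used here, so probes have positions and no exon annotation.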

Additional observations from a re-analysis of the deposited data

How the results depend on the processing

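The alternatives were another or no background correction, median centring, the scanner software's ratios, the deposited table, filters on dim probes, the mean of probes, each dye orientation, each couple left out, and fits with or without a block. In all 16, 0 members passed the adjusted threshold in limma. Over all genes, 1 gene passed with no replicate block (Cox6a2, samples of each group apart), 0 with the couple as a fixed replicate block, and 56 when the couple was a random block over the 6 arrays; the rest gave 0, and the cause was not tested. The block changed no other call. The members' median lay between -0.002859 and 0.1603 over the couples left out, and the members with 1 sign in all couples numbered 9 to 21, since fewer couples must share a sign. Cmpk2 stayed above 0 in every setting. Signs turned for Mx1, to 0.0129 with the scanner software's ratios, 0.0129 in the deposited table and 0.0439 with tamoxifen in Cy5; for Stat2 (0.14), Cxcl10 (0.11) and Ifnl3 (-0.11) with tamoxifen in Cy5; and for Gbp2 (-0.0564) and Usp18 (0.0158) with tamoxifen in Cy3. Leaving out a couple gave ranges across 0 for Oas1a (-0.59 to 0.28), Oas2 (-0.65 to 0.11), Mx1 (-0.37 to 0.42), Gbp2 (-0.15 to 0.46), Isg15 (-0.16 to 0.22), Irf7 (-0.25 to 0.14), Stat2 (-0.25 to 0.0231), Usp18 (-0.18 to 0.0588), Cxcl10 (-0.12 to 0.13) and Ifnl3 (-0.0155 to 0.0323). The median of the tested interferons moved to -0.17 with offset 16, to -0.28 with the scanner software's ratios and with the deposited table, and to -0.04 with no filter on dim probes. That of the sensing genes moved to 0.09 with tamoxifen in Cy5, and that of the other induced genes to 0.05 with median centring, 0.08 with tamoxifen in Cy5 and -0.02 without couple 3. Signals near background limit the interferon genes, Oas3 and Epsti1.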

Other observations

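Several genes of the wider interferon-induced list had the order of couples of Mx1 and Gbp2, higher in couples 1 and 2 and lower in couple 3. They were picked after their values were seen, and how many genes of the list had that pattern was not counted. Of all genes, 13.7% had it. Cxcl9, a T cell chemokine induced by interferon gamma, read 8.10, 7.65 and 7.61 in tamoxifen samples 1, 2 and 3, against 6.78, 6.96 and 7.97 in oil samples 1, 2 and 3, with log2 ratios of 1.32, 0.69 and -0.36. The immunity-related GTPases, which attack the vacuoles of intracellular microbes, included Iigp1 with 0.77, 1.03 and -0.29, Irgm1 with 0.58, 0.51 and -0.38 and Igtp with 0.65, 0.22 and -0.62 in couples 1, 2 and 3. For Iigp1, Irgm1 and Igtp, as for Gbp2, oil sample 3 was the highest of the 6 samples.

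Trim30a, an interferon-induced TRIM protein, had the opposite order, with ratios of -0.62, -0.51 and 0.53, and Ifi27l2a had -0.25, -0.40 and 0.70; among the members 9 shared that order of signs (Ddx58, Irf7, Isg15, Oas1a, Oas2, Parp14, Samhd1, Stat2 and Usp18), against 12.8% of all genes. None of these genes passed the adjusted threshold in limma, and their means differ from 0 by less than 1.5 times their SD over couples. These patterns are given as values and were not tested.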
